A study of Drosophila melanogaster with 7 samples.

Results

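Potassium channels opened by voltage or by calcium set how fast a neuron repolarizes and how often it fires. In the fly several were first found through mutants that shake, seize or sleep little. The Shaker-type genes Sh, Shab, Shal and Shaw encode voltage-gated channels, from the fast transient A-type currents of Sh and Shal to the delayed rectifier of Shab. The eag, sei and Elk genes encode the ether-a-go-go family, KCNQ encodes the M-type channel, and slo and SK encode the large- and small-conductance channels opened by calcium. These 10 genes were chosen by name as the main voltage- and calcium-gated potassium channels. Of them, 8 had intact rows among 14476 usable gene rows of the deposited table. Shaw and slo stand on damaged rows and were not analysed here.

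RNA from dissected fly brains (Drosophila melanogaster) was sequenced from its 3′ ends. The knockdown group, Actin-GAL4 UAS-sh-circMbl, expresses a hairpin against circMbl, the circular transcript of mbl (muscleblind), and holds 2 libraries. The control group, Actin-GAL4 UAS-sh8MM, expresses a hairpin with 8 mismatches and holds 5 libraries. Both groups carry Actin-GAL4, a driver active in nearly all tissues, so the hairpin is not limited to neurons, and all titles name day 3. The number, sex and pooling of the flies are not stated in the labels, so p-values measure the spread between libraries, which may be technical. The comparison asks which of these channel transcripts differ when circMbl is targeted.

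In the intact rows the knockdown libraries held 3260649 and 3308580 counted reads and the control libraries 3732675 to 5546121. The titles place both knockdown libraries under 1 date code and lane code L2. All controls stand under another date code, with lane code L7 for control replicates 1, 4 and 5 and L5 for control replicates 2 and 3. Genotype therefore cannot be told apart from date and lane code. Lane code also separated the controls, with 2057 of 7287 genes (28.2%) differing between L5 and L7 controls (limma in 3 groups, adjusted p under 0.05). Number 3 stands in the titles of control replicates 2 and 4, and number 2 in those of replicates 3 and 5. The labels do not say whether such pairs share RNA. mbl transcripts held 2770 and 2304 normalized counts in the knockdown libraries. Control replicates 1 to 5 held 3323, 3602, 4122, 3341 and 3430 (limma, adjusted p = 0.0694). Against each lane code mbl fell, by 0.61 ± 0.11 against L5 and 0.41 ± 0.10 against L7 on the log2 scale (limma in 3 groups, adjusted p = 0.00456 and 0.0105). A fall against both was found in 5.24% of all genes. The mbl reads come from polyadenylated 3′ ends and do not measure the circle, so they do not check the knockdown. Neuronal markers were present in every library. The 8 genes of that list (elav, nSyb, brp, Syt1, Syn, fne, Appl, futsch) summed to 50305 to 56293 normalized counts in knockdown brains, and to 39644 to 50938 in control brains.

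Of the 8 channel genes 0 passed the test over all genes, in a comparison that called 445 of 7287 genes (6.11%; limma on log2(normalized count + 1), Benjamini-Hochberg adjusted p under 0.05). Calls higher in knockdown brains were 3.47% of all genes and calls lower were 2.63%. By voom 0 of the 8 passed as well, where 4.72% of all genes did. At an unadjusted limma p under 0.05 there were 3 of 8 (25.5% of all genes), and all 3 were lower in knockdown brains (12.4% of all genes were). These were sei, Elk and KCNQ, which are also the only 3 of the 8 whose knockdown and control libraries did not overlap (32.4% of all genes did not, in either direction). Separation in that direction was found in 15.9% of all genes, and separation in the other direction, found in 16.6% of all genes, in 0 of the 8. The median log2 fold change of the 8 genes was -0.18, against -0.02 over all genes tested. Without knockdown replicate 1 the median was -0.31, and without knockdown replicate 2 it was -0.043.

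The channel genes differed widely in level. Reads come from the 3′ ends of transcripts in this assay, so the counts were not divided by length. Mean normalized counts in control brains were 18405 for Sh, 2937 for SK, 2281 for Shab, 1140 for eag, 648 for Shal, 152 for sei, 145 for Elk and 72.7 for KCNQ. Sh, the founding voltage-gated potassium channel gene, ranked 16 among the 14476 genes with intact rows by its mean over the 7 libraries. SK stood above Shab in 6 of 7 libraries, and sei stood above Elk in 4 of 7, so neither of these neighbours is clearly ordered. For Elk and KCNQ the ranges over all 7 libraries also overlapped, although Elk was higher in 7 of 7. The other neighbours in this order did not overlap. Sh made up 69.5% and 66.4% of the summed counts of the 8 genes in the knockdown libraries, and 67.2% to 72.9% in the controls.

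**Figure D1:**
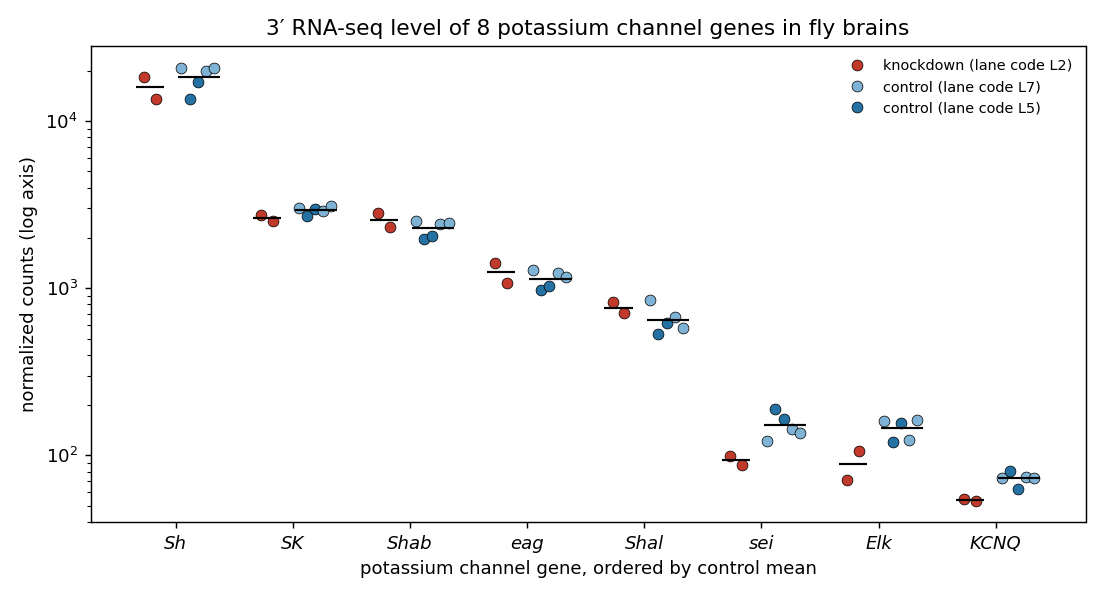
Normalized counts of the 8 potassium channel genes on a log axis, 1 point per library and a line at each group mean. Knockdown libraries stand left of the controls, and Sh lies far above the other genes while sei, Elk and KCNQ form the low end.

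The Shaker-type genes gave overlapping groups. Sh, whose channel carries the fast transient A-type current and whose mutants shake their legs and sleep little, held 18313 and 13603 in knockdown replicates 1 and 2, in normalized counts. Control replicates 1 to 5 held 20907, 13480, 17042, 19927 and 20670. Both knockdown values lay within the span of the controls, and the low controls were the 2 libraries of lane code L5. The log2 fold change was -0.20 ± 0.21 (SE), with a 95% interval from -0.68 to 0.27 (limma, adjusted p = 0.592). Between L5 and L7 controls 1 of the 8 genes passed, Sh (28.2% of all genes), with a difference of -0.44 ± 0.14 on the log2 scale (limma in 3 groups, adjusted p = 0.0447). Shab and sei just missed the threshold (adjusted p = 0.0516 and 0.0523), and the count was 0 without a filter on low values and 3 with a mean of at least 50. The knockdown difference of Sh changed sign with the controls used, 0.06 ± 0.16 against L5 and -0.38 ± 0.14 against L7 (limma in 3 groups, adjusted p = 0.827 and 0.067). With a separate fit to L7 controls alone the value of -0.38 passed (adjusted p = 0.0474, where 33.1% of all genes passed).

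Shab, the delayed rectifier gene, held 2830 and 2313 normalized counts in knockdown brains. Control brains held 2508, 1977, 2054, 2412 and 2456. Knockdown replicate 1 was the highest of the 7 libraries, and replicate 2 lay among the controls. The log2 fold change was 0.17 ± 0.15, with a 95% interval from -0.16 to 0.51 (limma, adjusted p = 0.512). Against the L5 controls Shab was higher in knockdown brains by 0.34 ± 0.11 (limma in 3 groups, adjusted p = 0.0446, where 21.6% of all genes passed). Against the L7 controls the difference was 0.06 ± 0.10 (adjusted p = 0.693). With a separate limma fit to L5 controls alone the value of 0.34 did not pass (adjusted p = 0.116, where 14.8% of all genes passed).

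Shal encodes the A-type channel of cell bodies and dendrites. It held 821 and 710 normalized counts in the knockdown libraries and 850, 530, 617, 669 and 576 in the controls. Both knockdown values exceeded every control but replicate 1. Its log2 fold change of 0.26 ± 0.18 did not pass (95% interval -0.16 to 0.67; limma, adjusted p = 0.426).

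In the ether-a-go-go family the groups overlapped for eag and were separate for sei and Elk. The name-giving gene eag, whose mutants shake under ether, held 1409 and 1082 normalized counts in knockdown brains. Control brains held 1290, 976, 1037, 1227 and 1171. Knockdown replicate 1 was the highest library and replicate 2 lay inside the control range. The log2 fold change was 0.12 ± 0.16, with a 95% interval from -0.24 to 0.48 (limma, adjusted p = 0.674).

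The gene sei (seizure) encodes the fly ERG channel, and its mutants are paralysed by heat. It held 98.8 and 87.7 normalized counts in the knockdown libraries, from 76 and 72 reads. In control replicates 1 to 5 it held 121, 190, 166, 144 and 137, from 129 to 208 reads. Every knockdown library was below every control, and the 2 highest controls were those of lane code L5. Knockdown brains averaged 93.2 ± 7.84 (SD, n = 2) and control brains 152 ± 26.9 (SD, n = 5). That is a log2 fold change of -0.68 ± 0.19 with a 95% interval from -1.11 to -0.25 that missed the threshold over all genes (limma, adjusted p = 0.0669; 0.00943 to 0.316 over the alternatives). Against each lane code separately sei fell in knockdown brains, by 0.92 ± 0.15 against L5 and by 0.52 ± 0.14 against L7 on the log2 scale (limma in 3 groups, adjusted p = 0.00257 and 0.0155). It also passed in a fit to L5 controls alone (adjusted p = 0.00943, where 14.8% of all genes passed). A fall against both lane codes was found in 5.24% of all genes, and among the 8 channel genes in sei alone. The contrasts share the knockdown libraries.

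Elk, the eag-like gene, held 71.5 and 106 normalized counts in knockdown brains, from 55 and 87 reads. The controls held 161, 121, 157, 123 and 164, from 110 to 207 reads. The groups did not overlap, but the knockdown libraries differed from each other, and knockdown replicate 2 came close to control replicates 2 and 4. Knockdown brains averaged 88.7 ± 24.4 (SD, n = 2), against 145 ± 21.3 (SD, n = 5) in control brains. The log2 fold change was -0.72 ± 0.21 with a 95% interval from -1.18 to -0.25 (limma, adjusted p = 0.0728; 0.0161 to 0.447 over the alternatives). It fell against L7 controls, by 0.76 ± 0.20 (limma in 3 groups, adjusted p = 0.0142, where 33.6% of all genes passed). Against L5 controls the value was -0.65 ± 0.22 and did not pass (adjusted p = 0.0581).

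Within the family, ratios between genes of the same library do not depend on how the libraries were scaled. For every 100 counts of eag the knockdown libraries held 7.01 and 8.11 counts of sei, against 9.40, 19.5, 16.0, 11.8 and 11.7 in control replicates 1 to 5. They held 5.07 and 9.80 counts of Elk per 100 of eag, against 12.5, 12.4, 15.1, 10.03 and 13.98 in the controls. Both ratios were lower in both knockdown libraries than in any control, narrowly so for Elk. These ratios were chosen after the values had been seen and carry no test.

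KCNQ, the gene of the slow M-type current that damps repeated firing, was the lowest of the 8. Knockdown brains held 54.6 and 53.6 normalized counts of it, from 42 and 44 reads. Control brains held 73.1, 80.5, 62.8, 73.8 and 73.3, from 66 to 94 reads. Both knockdown values lay below all controls, nearest to control replicate 3. The log2 fold change was -0.42 ± 0.16, with a 95% interval from -0.78 to -0.05 (limma, adjusted p = 0.149). Counting error alone gave exact Poisson 95% intervals of 39.3 to 73.8 and 38.9 to 71.9 for the knockdown values, which overlap those of every control. The differences from L5 and L7 controls were alike in size, -0.39 ± 0.19 and -0.43 ± 0.17 (limma in 3 groups, adjusted p = 0.162 and 0.072).

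SK encodes the small-conductance channel that calcium opens through bound calmodulin. It held 2740 and 2536 normalized counts in the knockdown libraries, and 3000, 2715, 2980, 2886 and 3103 in the controls. Knockdown replicate 1 lay just above control replicate 2, so the groups overlapped. SK was the steadiest of the 8 genes among the controls, with a coefficient of variation of 4.98% against 8.70% to 19.1% for the others. Its log2 fold change of -0.15 ± 0.12 did not pass (95% interval -0.42 to 0.11; limma, adjusted p = 0.446).

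**Figure D2:**
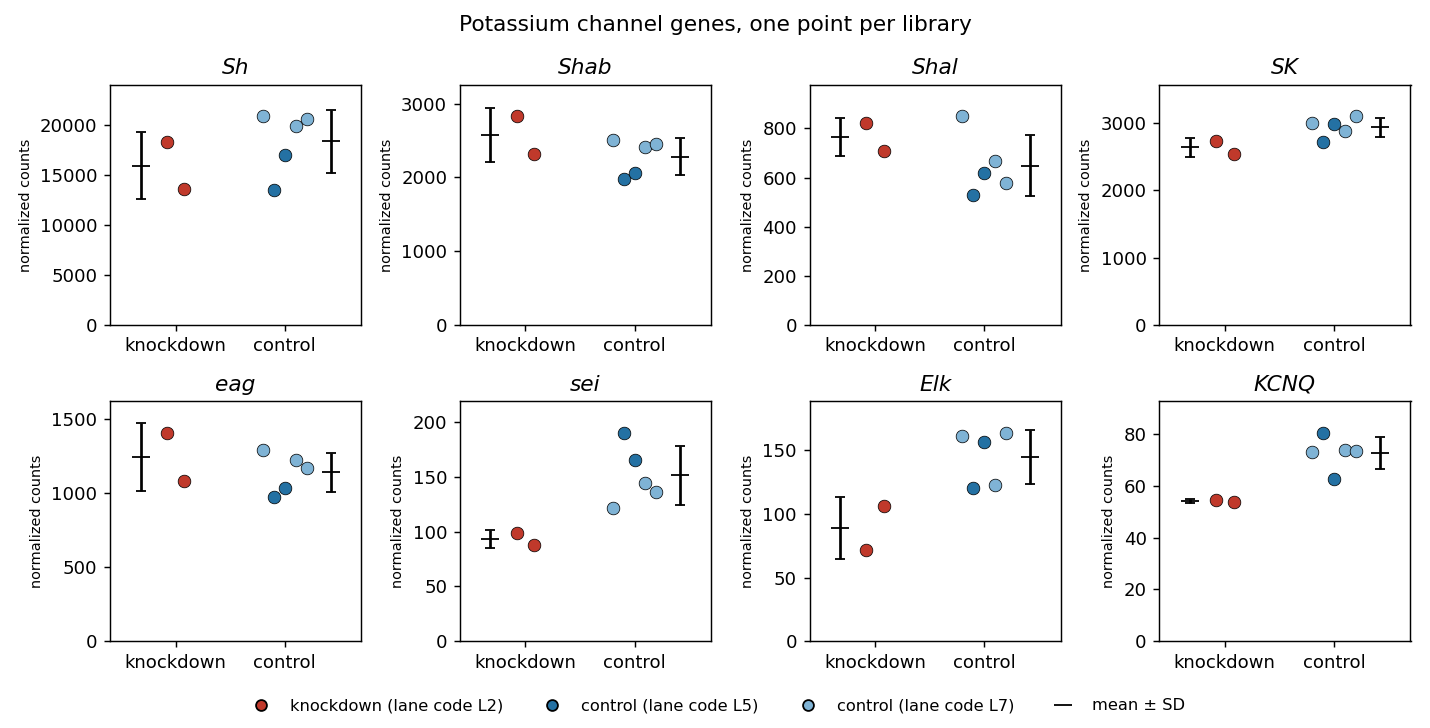
Normalized counts per library for each gene, axes from 0, with knockdown left and control right, coloured by lane code, and mean ± SD beside the points. The groups are separate for sei, Elk and KCNQ and overlap for the other 5 genes, and the L5 controls of Sh, Shab and eag lie below the L7 controls.

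The knockdown libraries differed from each other in the same direction for most of these genes. Knockdown replicate 1 was higher than replicate 2 for 7 genes, by ratios from 1.02 for KCNQ to 1.35 for Sh, and lower for Elk (0.675). Their summed counts were 26338 and 20490 in the knockdown libraries and 20069 to 28910 in the controls. Without Sh the sums were 8025 and 6888 in knockdown and 6589 to 8003 in control brains. The groups overlapped in both sums. In bulk samples, fewer cells that express a gene and less RNA per cell cannot be told apart.

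**Figure D3:**
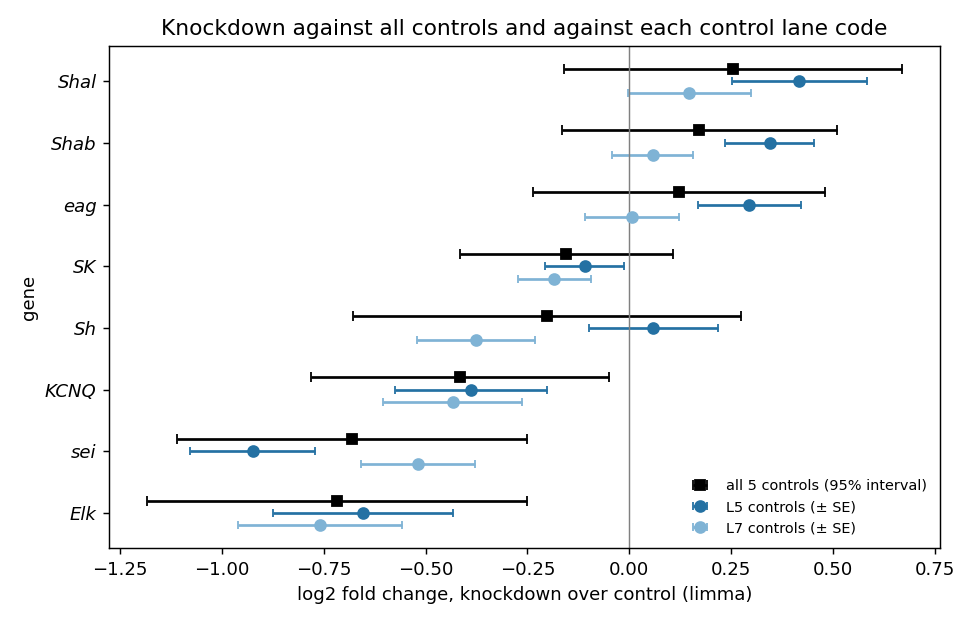
Log2 fold change of knockdown over control for each gene, against all 5 controls (squares, 95% interval) and against L5 or L7 controls in a fit of 3 groups (circles, ± SE). The values for sei, Elk, KCNQ and SK are below 0 against both lane codes, and that of Sh changes sign between them.

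Reads of all transcripts of a gene are summed in the table. On BDGP6, the assembly of dm6, sei (FBgn0003353) spans 5625 bases of 2R from 24047411 to 24053035 on the plus strand and its 3 annotated transcripts share 1 end. Elk (FBgn0011589; 2R, 17873939 to 17926695, plus strand) has 2 annotated transcript ends. KCNQ (FBgn0033494; 2R, 10145897 to 10192394, minus strand) also has 2. Sh (FBgn0003380; X, 17924307 to 18063247, minus strand) has 17 transcripts with 8 ends. A change in the use of these ends would not be seen here. The strand setting of the counting is not given, so reads of overlapping genes may be shared. The end of sei overlaps ppk29, a sodium channel gene of the opposite strand, which held 5.20 and 2.44 normalized counts in the knockdown libraries and 3.64 to 14 in the controls. Its start overlaps gammaSnap1, also of the opposite strand, with 1126 and 1390 in knockdown and 1703 to 2314 in control brains. The end of KCNQ overlaps CG18011, with 6.50 and 10.96 in knockdown and 0.823 to 3.89 in control brains. The gene mlt lies inside KCNQ on the same strand, with 1963 and 2519 in knockdown and 1706 to 2820 in control brains. PPO1 lies inside Elk on the opposite strand, with 109 and 40.2 in knockdown and 16.3 to 86.5 in control brains. The part of these neighbours in the results was not tested.

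Channels are built and tuned with other proteins, and 10 of 12 listed subunits and partners were measured. Of these 1 rose, 0 fell and 9 did not pass, where 6.11% of all genes passed (median log2 fold change 0.13, against -0.02 over all genes tested). The riser was CaMKII, the calcium-dependent kinase that phosphorylates the eag channel. It held 1366 and 1376 normalized counts in the knockdown libraries and 859, 735, 789, 877 and 867 in the controls (log2 fold change 0.74 ± 0.12; limma, adjusted p = 0.0153). Without knockdown replicate 1 or 2 its log2 fold change was 0.74 and 0.73 (adjusted p = 0.163 and 0.128, in fits where 1 of 7287 genes passed).

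The next partners by p did not pass. Calmodulin (Cam), the calcium sensor of SK, held 58569 and 55909 normalized counts in knockdown and 37334 to 47906 in control brains (limma, adjusted p = 0.143). Adar, the RNA-editing enzyme that recodes several potassium channel transcripts, held 1032 and 949 against 753 to 887 (adjusted p = 0.189). For both, the knockdown libraries lay above all controls, as in 16.6% of all genes. qvr (sleepless), a membrane-anchored protein that raises Sh channel levels, held 1622 and 1715 in knockdown and 1829 to 2250 in control brains (limma, adjusted p = 0.255). CASK, a scaffold that binds the eag channel, held 4766 and 4241 in knockdown and 3208 to 4410 in control brains, with overlap (limma, adjusted p = 0.533).

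The counts for other channel genes depended on the controls used. Of 7 measured genes for other potassium channels 1 rose, 0 fell and 6 did not pass (median -0.05), and 2 more in the table were too low to test. The riser was the inward rectifier gene Irk3, with 181 and 191 normalized counts in knockdown and 107 to 138 in control brains (log2 fold change 0.63 ± 0.15; limma, adjusted p = 0.043). Its call ended without control replicate 1, 3, 4 or 5 (adjusted p from 0.0579 to 0.0985), with log2 fold changes from 0.59 to 0.68. SLO2 and Irk2 missed the threshold by about as much as sei and Elk (log2 fold change -0.68 and -0.63; limma, adjusted p = 0.0744 and 0.0643). Both were lower in the knockdown libraries than in any control (15.9% of all genes were). Irk3 and Task7 were higher in this way (16.6% of all genes were). With L5 controls alone 4 of the 7 genes passed (14.8% of all genes did). With L7 controls alone 5 passed (33.1% of all genes), and with same-titled controls averaged 3 (15.9% of all genes). Of 11 genes for sodium, calcium and pacemaker channels 0 rose, 1 fell and 10 did not pass (median -0.10), again where 6.11% of all genes passed. The gene that fell was unc79, a subunit of the sodium leak channel complex. It held 1205 and 1133 normalized counts in knockdown and 1932 to 2298 in control brains (log2 fold change -0.86 ± 0.12; limma, adjusted p = 0.00901). Without knockdown replicate 1 or 2 its log2 fold change was -0.91 and -0.82 (adjusted p = 0.108 and 0.103, again with 1 gene passing). Another gene of this list, na, went the other way and did not pass. It held 276 and 150 normalized counts in knockdown and 85.0 to 128 in control brains (log2 fold change 0.93 ± 0.25; limma, adjusted p = 0.0637). Both knockdown values of na lay above all controls, as in 16.6% of all genes. With L7 controls alone 5 of the 11 passed (33.1% of all genes), and with same-titled controls averaged 2 (15.9% of all genes). Whether these lists differ from the 8 potassium channel genes was not tested.

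**Figure D4:**
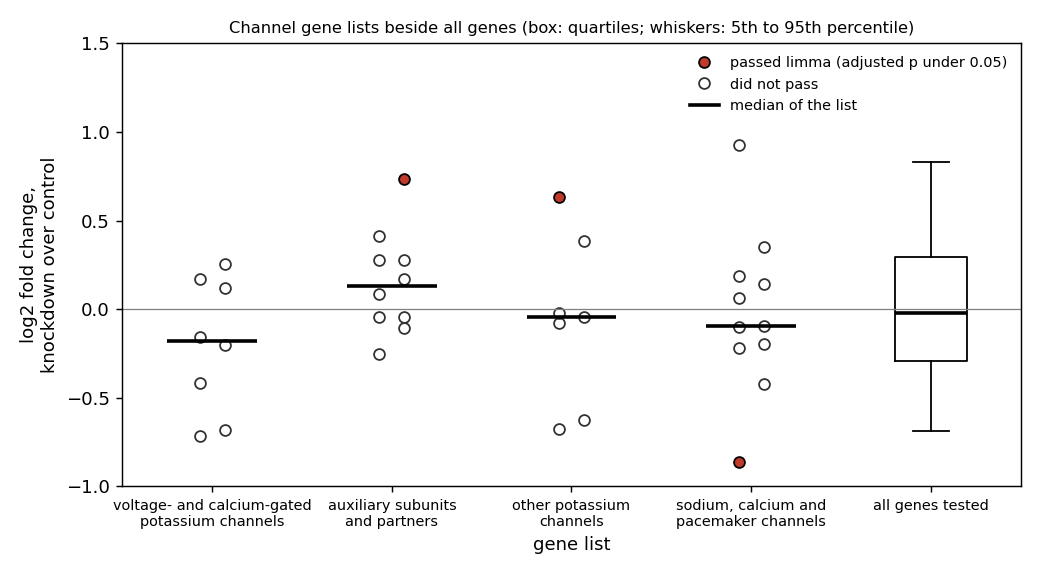
Log2 fold change of each measured gene in the 4 channel-related lists, with the median of each list, beside a box of all 7287 genes tested. The 8 voltage- and calcium-gated potassium channel genes lie between -0.72 and 0.26, none of them past the test, and 1 gene passed in each of the other lists.

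Among 5081 other genes averaging 50 or more, the profiles most like that of sei over the 7 libraries were those of Psn (Pearson r = 0.974), MtnA (0.973) and PTP-ER (0.968). These r values describe log2 values of libraries that share lane codes and carry no test. MtnA, a metallothionein gene, held 3936 and 3577 normalized counts in knockdown brains and 4748, 5973, 5879, 4762 and 5094 in control replicates 1 to 5.

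Fat body markers were higher in every knockdown library by their sum. Of 7 measured fat body genes 3 rose (Yp3, fit and tobi), where 3.47% of all genes rose. The 8 in the table summed to 44112 to 50273 normalized counts in knockdown and to 14958 to 36057 in control brains. No gene passed among 6 glial, 7 photoreceptor and 9 muscle markers (limma; 1 of each list at an unadjusted p under 0.05, 0 by voom). Glial sums were 74827 to 81925 in knockdown and 56628 to 71166 in control brains, and the glutamine synthetase gene Gs2 carried that separation. Without Gs2, left out after its values were seen, the sums were 3920 to 4209 in knockdown and 3752 to 5447 in control brains and overlapped. The median log2 fold change of the 6 glial genes was -0.11. Of these, moody and alrm were lower in both knockdown libraries than in any control (15.9% of all genes were), and Gs2 was higher (16.6% of all genes were). The other lists also held separate genes. These were 2 neuronal and 6 fat body genes, all higher, and 2 photoreceptor genes and 1 muscle gene, all lower. Muscle sums were 981 to 1404 in knockdown and 1235 to 2216 in control brains. Photoreceptor sums were 3683 to 6280 in knockdown and 3493 to 6402 in control brains. Of the neuronal markers nSyb alone passed, and it rose. Without nSyb the neuronal sums were 39113 to 43832 in knockdown and 35410 to 45637 in control brains. The part of cell composition in the channel results was not tested.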

How the data were processed

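Per the labels' protocols, bulk brain RNA was sequenced with a modified CEL-seq2 method. The submitters' processing notes name STAR and dm6. How reads were counted, on which annotation and strand, and whether molecular identifiers were collapsed is not stated there. The authors deposited normalized counts, by the file's name. In intact rows, 100% of values above 0 were whole multiples (within 0.001) of 1 step per library, from which reads were recovered. Of the table, 14476 intact rows were used. Left out were 2139 damaged rows, 1 row with a damaged name and 402 columns without a sample.

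Genes with a mean of at least 10 (7287) were compared on log2(value + 1) with limma 3.58.1 in R 4.3.3 (mean-variance trend, no covariates, Benjamini-Hochberg, threshold 0.05), which understates the change of low genes. Intervals are 95%, and Poisson intervals cover counting error only. A second fit used 3 groups: knockdown, L5 controls and L7 controls. The members, lists and tests were chosen with earlier results of these data known. The text names all members, partners past the threshold and the 4 next by p, genes past the threshold in the other channel lists, mbl, and the 3 genes most like the member of smallest p. Other genes were chosen after their values were seen. The list genes sand and galene matched CG8713 and CG9194 by synonym. Gene positions come from Ensembl's BDGP6 annotation.

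On simulated data of 7287 genes for 2 against 5 libraries, the limma test recovered 10.4% of 1.5-fold, 34.3% of 2-fold and 80.3% of 4-fold changes, with 3 false calls among 86. The simulated counts were drawn for each gene separately, with no date or lane code effect set for any library. Their spread was taken from all 5 controls together, so it holds the difference between lane codes as noise. These rates therefore do not carry over to the real comparison, where genotype cannot be told apart from date and lane code.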

Additional observations from a re-analysis of the deposited data

How the results depend on the processing

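The 18 alternatives moved the number of genes called (445) to 1082 with L5 controls alone, 2409 with L7 controls alone, 1158 with same-titled controls averaged, and 1 to 663 with 1 library left out. Of the 8 potassium channel genes 0 passed in the main test, 1 with L5 controls alone (sei), 3 with L7 controls alone (sei, Elk, Sh), 2 with same-titled controls averaged (sei, Elk) and 0 to 1 with 1 library left out (Elk, without control replicate 2, adjusted p = 0.0497). Partners called (1) became 2 with L5 and 4 with L7 controls alone and 0 to 1 with 1 library left out. The median log2 fold change of the 8 genes was -0.026 with L5 controls alone and -0.31 to -0.043 with 1 library left out. Other potassium channels called (1) became 4 with L5 and 5 with L7 controls alone, 3 with same-titled controls averaged and 0 to 2 with 1 library left out. Sodium, calcium and pacemaker channels called (1) became 1, 5, 2 and 0 to 1 in the same order. Quantile normalization gave 2 for each of these lists. Between L5 and L7 controls 1 of the 8 passed, 0 without a filter and 3 with a mean of at least 50. Signs turned for Sh without knockdown replicate 2 (0.012; -0.42 to 0.012 with 1 library left out) and with L5 controls alone (0.058), and for eag without knockdown replicate 1 (-0.069; -0.069 to 0.31 with 1 library left out). The other 6 genes kept their sign in all 18. The causes were not tested. Sets of 1 knockdown library assume that it varies as the controls do, and with 1 gene called in each they say nothing on the stability of a call. By voom, added after seeing the data, 344 genes passed, and 70.6% of the calls were higher, against 56.9% in the main test. The planned edgeR test was not run because damaged rows keep the table from being checked as counts.

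With a replicate block by the number in the source name 120 genes passed, and by the number in the title 51, with 0 of the 8 potassium channel genes 0 partners and 0 genes of the other channel lists in both (unc79, adjusted p = 0.0589 and 0.0558; Irk3, 0.273 and 0.104; CaMKII, 0.0858 and 0.0733). Deviations of same-numbered libraries from their group means correlated at 0.10 (source number 1) and 0.14 (source number 2), and by title number from -0.03 to 0.14, across 7287 genes. The labels do not say what these numbers mark. By source number control replicates 3, 4 and 5 share no block with a knockdown library, and by title number control replicate 1 shares none. Those controls add nothing to the blocked differences, so these fits compare fewer libraries. Few reads limit KCNQ, Elk and sei, with 42 to 87 in the knockdown libraries.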

Other observations

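Several channel-related genes, picked after their values were seen, differed more between control lane codes than between genotypes. The partner gene dysc, whose product regulates the slo channel, held 8324 and 6944 normalized counts in knockdown brains and 11004, 9573 and 9641 in L7 controls, against 4963 and 5839 in L5 controls. For 14-3-3zeta, a partner of the slo-binding protein, knockdown brains held 37318 and 32427, L7 controls 43884, 39648 and 38669, and L5 controls 14892 and 19627. The leak channel gene Ork1 held 299 and 253 in knockdown brains, 425, 407 and 351 in L7 controls, and 179 and 188 in L5 controls. In each of these 3 genes the knockdown libraries lay between the lane codes of the controls, so the sign of the difference depends on which controls are used.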
